A study of Mus musculus with 18 samples.

Results

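The genes described here encode 8 precursors of secreted peptides: Sst (somatostatin), Pnoc (nociceptin), Grp (gastrin-releasing peptide), Cck (cholecystokinin), Nts (neurotensin), Iapp (amylin), Gal (galanin) and Npy (neuropeptide Y). They were chosen by their known production in C cells and other neuroendocrine cells and with the central against peripheral values of these same arrays in view. The arrays carried 10 probes for them among 41174 gene probes, and all 8 genes passed the filter on dim probes along with 14664 genes in all. Pnoc and Cck had 2 probes each.

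The series asked how thyroid cells respond when part of the gland is removed. RNA came from laser-captured areas of the thyroid of male C57BL/6 mice, and 1 captured area went on each array. Dissected central (n = 5) and dissected peripheral (n = 5) areas were cut from thyroids that had undergone partial thyroidectomy. Normal central (n = 5) and normal peripheral (n = 3) areas came from glands without that operation. The labels carry no time after surgery, no age and no link between areas and mice. Areas may therefore share an animal. Sharing within a group would make the p-values below too small, and sharing between a central and a peripheral group could move the area p-values either way. Every array was hybridised against 1 mixed RNA of Swiss Webster mice that included brain but no thyroid. A value below is the log2 ratio of tissue (Cy5) to that reference (Cy3), so 0 means as much signal as in the mixture. A log2 difference is one group's mean ratio minus another's, and levels of different genes were not compared.

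C cells sit mostly in the middle of each thyroid lobe, between or within follicles, and secrete calcitonin. Like other neuroendocrine cells they can make further peptides, which are built as large precursors, cut at pairs of basic residues by the prohormone convertases Pcsk1 and Pcsk2, trimmed by carboxypeptidase E, in many cases amidated, and stored in granules with chromogranins. Somatostatin is a classical second product of a subset of C cells and acts through inhibitory receptors, whereas gastrin-releasing peptide and cholecystokinin stimulate their target cells. Several of these peptides, among them neuropeptide Y and galanin, also occur in the nerve fibres of the gland.

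Probes of Nts, Npy and Pnoc lie over the part of the mRNA that encodes the peptide itself, and their sequences show the kind of residue pairs at which the enzymes described further on can cut. They are written 5′ to 3′ in the sense of the mRNA, as given in the scanner files, with positions on mouse build mm7. Capitals mark each pair of codons for lysine or arginine, in the only open reading frame of the probe that holds such a pair.
Nts: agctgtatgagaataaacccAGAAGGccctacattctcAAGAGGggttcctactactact
Npy: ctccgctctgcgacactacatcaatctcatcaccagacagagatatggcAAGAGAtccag
Pnoc: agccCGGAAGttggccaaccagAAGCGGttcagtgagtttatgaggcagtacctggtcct
In the Nts probe (chr10:101968978-101969037, minus strand) the arginine pair lies inside neurotensin, and the lysine-arginine pair that follows is its release site. The Npy probe carries a glycine codon directly before its lysine-arginine pair, the signal for amidation of the peptide end. It runs from 49783794 to 49787556 on the plus strand of chromosome 6, a span of 3763 bases for 60 bases of probe, so it crosses at least 1 intron. The Pnoc stretch is that gene's second probe (chr14:60264987-60265046, minus strand), in which an arginine-lysine pair within nociceptin is followed by the lysine-arginine pair at its end.

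The promoter of Sst holds the element through which cAMP is known to act on the rat somatostatin gene. What the element contributes to the Sst values on these arrays was not tested. The 100 bases before the start of the mouse gene are shown from RefSeq on GRCm38.p6, chr16:23890845-23890944, minus strand, with the element in capitals.
Sst: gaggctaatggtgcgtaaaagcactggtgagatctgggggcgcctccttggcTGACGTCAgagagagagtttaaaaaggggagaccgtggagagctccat
The full element TGACGTCA, which reads the same on both strands, begins 48 bases before the start. It was searched for in the 250 bases before each start and was found in 508 of 32851 promoters (1.55%). Promoters of 6 of the 8 genes were in the table, namely Sst, Cck, Nts, Iapp, Gal and Npy, and among them only Sst held the full element. The first letters alone, TGACG on either strand, were found in 17.8% of all promoters and in those of Sst (within the full element), Cck and Nts.

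The 8 genes fell into 2 kinds by the size of the measured area difference. Sst, Pnoc, Grp and Cck stood higher in the central than in the peripheral area by 1.41 to 2.98 on the log2 scale, in dissected and in normal glands. Nts, Iapp, Gal and Npy differed between the areas by -0.10 to 0.56. For Iapp, Gal and Npy the name C cell peptide thus rests on what is known of them elsewhere. The Iapp and Gal probes were dim, however, with tissue intensities of at most 245 and 399. The background correction used shrinks ratios of dim spots. The dim second probe of Pnoc gave 0.81 in dissected and 0.74 in normal glands, against 2.98 and 2.32 with the brighter probe. The second Cck probe gave 0.03 and -0.11, against 1.41 and 1.46 with the first. Whether Iapp and Gal differ between the areas by more than was measured was not tested. Nts was too dim to place, above background on 3 of 5 arrays in each central group and on 1 peripheral array. Its 95% interval for the area difference in dissected glands reached 1.13. These area differences were in view when the genes were chosen and are given as a description, with no test. Among all 14664 genes, 86 (0.586%) were called higher in the dissected central area, at a Benjamini-Hochberg adjusted p under 0.05 from limma, and 41 (0.280%) in the normal central area. None (0%) was called lower in either. These calls are used below only for other genes. The plot of each gene by array shows both kinds.

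**Figure D1:**
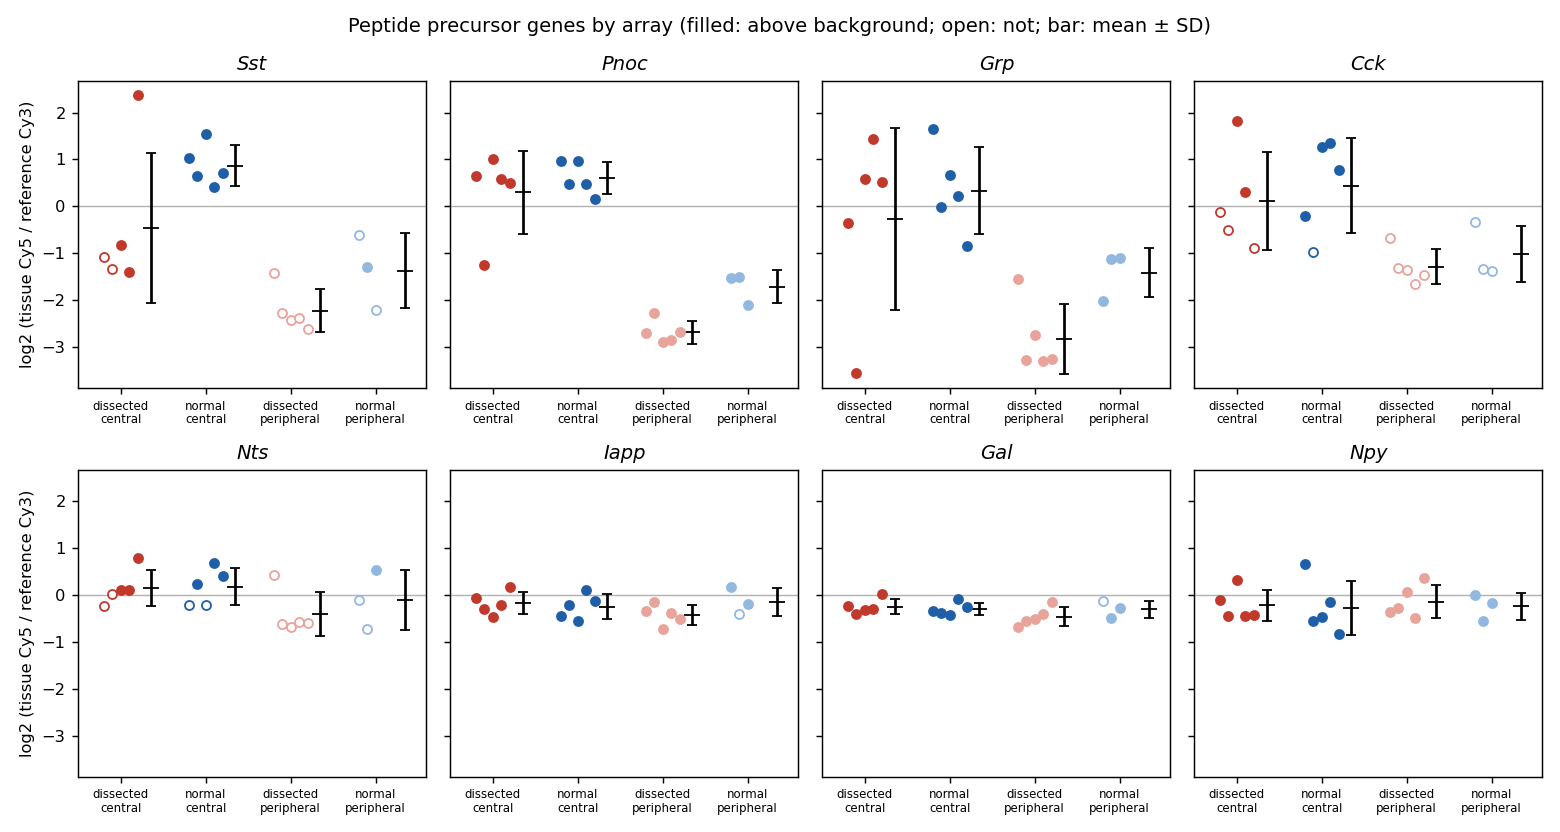
Log2 ratio of tissue over reference for each of the 8 genes (1 panel each, brighter probe) in dissected central, normal central, dissected peripheral and normal peripheral arrays. Filled points are arrays on which the tissue signal was well above background, open points those on which it was not, and bars are the mean ± SD. Sst, Pnoc, Grp and Cck stand higher in the central groups, with dissected central 5 alone at 2.38 for Sst and dissected central 2 at -3.56 for Grp.

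Markers of the cells in each area were read beside the genes. The mean log2 ratio of 12 measured C cell markers (of 14 listed, none of them among the 8 genes) was -1.11, -0.00, 0.67, 0.74 and 1.02 on the dissected central arrays and 0.65 to 1.43 on the normal central ones. It was -2.15 to -1.80 on dissected peripheral and -1.60 to -0.95 on normal peripheral arrays. Dissected central 2 was thus closer to the peripheral arrays than to the other central ones. In captured areas, fewer C cells and less RNA per C cell cannot be told apart. Thyroglobulin (Tg), made by the follicle cells, gave a tissue intensity of 306324 or more on every array. Of 10 autonomic neuron markers only Elavl4 and Nefl were measured, and their mean was -0.54 to 1.23 on dissected central, 0.09 to 0.76 on normal central, -1.26 to -0.61 on dissected peripheral and -1.10 to -0.22 on normal peripheral arrays. Elavl4, an RNA-binding protein of neurons, was above background on 4 dissected central, 5 normal central and 0 peripheral arrays. Elavl4 thus passed the filter on dim probes through central arrays alone. It was called higher in the central area of dissected glands by 2.53 (SE 0.42, limma adjusted p = 0.00746). Th, the enzyme that starts catecholamine synthesis in sympathetic neurons, was above background on no array. Of 4 parathyroid markers Pth and Chgb were measured, with a median area difference of 2.13 in dissected and 2.31 in normal glands, where Chgb, which is also in the C cell list, was the one called. The other parathyroid markers, Casr and Gcm2, were above background on 0 and 1 arrays. Parathyroid hormone (Pth) had an intensity of 69155 on normal central 3, whereas its highest value elsewhere was 653, on a normal peripheral array. What these cells contribute to the 8 genes was not tested.

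Somatostatin, which restrains hormone release from neighbouring cells, was split within the dissected central group. The log2 ratio of Sst was -1.08, -1.34, -0.84, -1.40 and 2.38 on dissected central arrays 1 to 5, against 1.03, 0.64, 1.54, 0.42 and 0.71 on normal central arrays 1 to 5. Dissected central 5 stood above every normal central array, and the other 4 dissected central arrays stood below every one of them. The tissue intensities show the same split without the reference channel. They were 62.8, 30.7, 427, 204 and 4992 on the dissected central arrays, against 2468, 1221, 2557, 1336 and 1416 on the normal central arrays, while the reference intensity stayed between 482 and 1101 on all 18 arrays. On dissected central 1 and 2 the spot was not well above background.

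In the peripheral areas Sst was near the limit of the array. Its ratio was -1.42, -2.28, -2.43, -2.39 and -2.62 on dissected peripheral arrays, none of them above background, against -0.61, -1.29 and -2.21 on normal peripheral arrays, of which only the second was above background. The central over peripheral difference was 1.77 on the log2 scale (SE 0.55) in dissected glands and 2.24 (SE 0.64) in normal glands. Without dissected central 5 the dissected difference was 1.06. Expressed as an approximate bound on the tissue channel, the dissected central area was 2.71-fold brighter than the dissected peripheral area. For it the dim group was raised to the lowest signal detected on each array. The spot was above background on 3 of 5 dissected central arrays, and the undetected ones entered as measured. The central arrays stood above all peripheral ones in both states, though in dissected glands the lowest central value was -1.40 and the highest peripheral one -1.42. With the scanner program's own ratios, which add no offset to dim spots, the differences were 3.11 in dissected and 4.44 in normal glands. The Sst probe lies at chr16:23547994-23548053 on the minus strand (mm7) and was printed 10 times on each array. Its spots were averaged.

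Dissected central against normal central was not the comparison in view when the genes were chosen. It uses the same central arrays, however, and earlier results of these data were known. Sst was 1.32 lower on the log2 scale after dissection (SE 0.55, 95% interval -2.49 to -0.16, 2.50-fold), and the unadjusted p of 0.0283 became 0.879 after adjustment over all genes in limma. The difference rested in its size on dissected central 5: without that array it was -2.03 with an adjusted p of 0.0626, also above the threshold. On 4 of 5 slides that held an array of both groups, Sst was lower on the dissected one, the differences running from -2.38 to 1.66. The C cell list gives a point of comparison on the same arrays. Dissected central 3 and 4 had list means of 1.02 and 0.74. The normal central mean was 1.43 on array 3, which held the high Pth signal, and 0.65 to 0.82 on the others. Sst tissue intensities on dissected central 3 and 4 were 427 and 204, below the 1221 of the lowest normal central array. What the amount of C cells contributes to the Sst values was not tested. Dissected central 5 had a list mean of 0.67 and the highest Sst value of all. In the peripheral area Sst differed by -0.85 after dissection (SE 0.64, limma adjusted p = 0.745). As an approximate bound this was 1.61-fold, resting on the 1 normal peripheral array above background.

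Nociceptin, an opioid-related peptide that acts on the receptor Oprl1 and not on the classical opioid receptors, was the most even of the higher genes. The log2 ratio of Pnoc was 0.64, -1.25, 1.01, 0.59 and 0.49 on dissected central arrays, against 0.96, 0.48, 0.96, 0.47 and 0.16 on normal central arrays. Dissected central 2 stood apart from all other central arrays, and the remaining dissected values lay within or just above the normal ones. In the peripheral areas the ratio was -2.71, -2.28, -2.90, -2.86 and -2.69 on dissected arrays, against -1.53, -1.50 and -2.12 on normal arrays. Every one of the 18 spots was well above background, with tissue intensities of 418 to 1450 in the dissected peripheral group and 1541 to 2235 in the normal peripheral group.

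The central area had 7.90-fold more Pnoc signal than the peripheral area in dissected glands (log2 2.98, SE 0.32) and 5.00-fold more in normal glands (log2 2.32, SE 0.37). The direction held on all 5 slides of the dissected comparison, by 1.02 to 3.91, and on all 3 slides of the normal one, by 1.98 to 2.59. The brighter Pnoc probe lies at chr14:60261851-60261910. The second probe, printed above, had a reference intensity of 116 to 251 and was above background on 10 of 18 arrays. It gave smaller differences of 0.81 (SE 0.20) in dissected and 0.74 (SE 0.23) in normal glands in the same direction.

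After dissection Pnoc did not pass the test in either area. The central difference was -0.31 (SE 0.32, adjusted p = 0.998 in limma), and its sign rested on dissected central 2, without which it was 0.0761. The peripheral difference was -0.97 (SE 0.37, 95% interval -1.74 to -0.20, 1.96-fold, unadjusted p = 0.0165, adjusted p = 0.550). In the peripheral area every dissected array stood below every normal array, as did 2.05% of all genes. The C cell list moved with it, with no overlap between -2.15 to -1.80 in dissected and -1.60 to -0.95 in normal peripheral arrays, and its part in the Pnoc difference was not tested. The second Pnoc probe gave a peripheral difference of -0.21 (SE 0.23), with overlapping groups.

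Gastrin-releasing peptide, the mammalian counterpart of bombesin and a growth-promoting peptide of airway neuroendocrine cells, spread widely within the central groups. The log2 ratio of Grp was -0.35, -3.56, 0.58, 1.45 and 0.51 on dissected central arrays, against 1.65, -0.02, 0.67, 0.22 and -0.85 on normal central arrays. It was -1.54, -3.28, -2.76, -3.30 and -3.25 on dissected peripheral arrays, against -2.02, -1.13 and -1.10 on normal peripheral arrays. Dissected central 2 was the lowest of all 18 arrays, below every peripheral one, while its Pnoc ratio was still above all 8 peripheral values. Tissue intensity on that array was 1793, against 20435 to 76007 on the other dissected central and 19780 to 107575 on the normal central arrays.

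Central exceeded peripheral Grp by 2.55 (SE 0.70) in dissected and 1.75 (SE 0.81) in normal glands. Leaving out dissected central 2 brought the dissected difference to 3.37. On the 5 dissected slides the difference ran from -0.27 to 4.75, and on the 3 normal slides from 1.102 to 3.67. After dissection Grp differed by -0.61 in the central area (SE 0.70, adjusted p = 0.998) and by -1.41 in the peripheral area (SE 0.81, 95% interval -3.12 to 0.30, adjusted p = 0.648). The sign of the central difference hung on dissected central 2, without which it was 0.21. The Grp probe was above background on all arrays, saturated on none, and had a reference intensity of 24317 to 40457.

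Cholecystokinin, a gut and brain peptide that drives pancreatic secretion and satiety, was well above background on some central arrays and not on others. Near that limit the signals were alike, at 146 on dissected central 1, which did not pass, and 160 on normal central 1, which did. The log2 ratio of Cck was -0.12, -0.51, 1.81, 0.30 and -0.90 on dissected central arrays, against -0.21, -0.98, 1.27, 1.35 and 0.77 on normal central arrays. Its tissue intensities ranged there from 32.1 to 1354 and from 14.8 to 1292, and the spot was well above background on dissected central 3 and 4 and on normal central 1, 3, 4 and 5. On the peripheral arrays the ratio was -1.66 to -0.67 in the dissected and -1.38 to -0.34 in the normal group, and no peripheral spot was above background.

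As an approximate bound, Cck was 1.88-fold brighter in the dissected central than in the dissected peripheral area. In normal glands the central area was 2.22-fold brighter. The spot was above background on 2 of 5 dissected central and 4 of 5 normal central arrays, and the undetected central spots entered as measured. The log2 differences were 1.41 (SE 0.48) and 1.46 (SE 0.55), with overlap between central and peripheral arrays in both. After dissection Cck differed by -0.32 in the central area (SE 0.48, adjusted p = 0.998) and by -0.27 in the peripheral area (SE 0.55, adjusted p = 0.931), where both groups were below background. Both Cck probes lie on the minus strand, at chr9:121192651-121192710 and chr9:121196134-121196193. The second was above background on 3 arrays, its tissue intensity reached at most 94.9 on any array, and its area differences were small (0.03, SE 0.09, in dissected and -0.11, SE 0.11, in normal glands).

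Neurotensin, a peptide of gut endocrine cells and neurons that acts on gut movement and in the brain, was near the detection limit. The log2 ratio of Nts was -0.24, 0.01, 0.11, 0.10 and 0.79 on dissected central arrays, against -0.22, 0.24, -0.22, 0.68 and 0.41 on normal central arrays. On dissected peripheral arrays it was 0.43, -0.63, -0.68, -0.57 and -0.60, none above background, against -0.11, -0.74 and 0.53 on normal peripheral arrays. The spot was above background on 3 of 5 arrays in each central group and on normal peripheral 3 alone in the peripheral groups. On that array both channels were bright, with 1362 in Cy5 and 867 in Cy3, although the reference channel held the same RNA and read 24.6 to 96.0 on all other arrays. The central over peripheral difference of Nts was 0.56 (SE 0.27, 95% interval -0.001 to 1.13) in dissected glands and 0.28 (SE 0.31) in normal glands. As an approximate bound the dissected difference was 1.11-fold. After dissection it differed by -0.02 (SE 0.27, adjusted p = 0.999) in the central and -0.30 (SE 0.31, adjusted p = 0.827) in the peripheral area.

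Amylin, the partner of insulin in pancreatic beta cells and a relative of calcitonin, was flat across the groups. The ratio of Iapp ran from -0.46 to 0.17 on dissected central, -0.55 to 0.10 on normal central, -0.73 to -0.14 on dissected peripheral and -0.41 to 0.17 on normal peripheral arrays. All 4 ranges overlap. Its tissue intensity was 57.9 to 245 on all arrays, well above background on 17 of them (probe at chr6:142391246-142391305, plus strand). The area difference was 0.25 (SE 0.16) in dissected and -0.10 (SE 0.19) in normal glands. After dissection Iapp differed by 0.07 (SE 0.16, adjusted p = 0.998) in the central and by -0.27 (SE 0.19, adjusted p = 0.711) in the peripheral area.

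Galanin, a peptide of nerves and endocrine cells that inhibits release, had the narrowest range of the 8 genes. The ratio of Gal was -0.41 to 0.03 on dissected central, -0.43 to -0.09 on normal central, -0.68 to -0.14 on dissected peripheral and -0.49 to -0.13 on normal peripheral arrays. The area difference was 0.21 (SE 0.12) in dissected and 0.00 (SE 0.14) in normal glands. In dissected glands central stood above peripheral on all 5 slides, by 0.12 to 0.45. After dissection Gal differed by 0.05 in the central area (SE 0.12, 95% interval -0.21 to 0.31, adjusted p = 0.998) and by -0.16 in the peripheral area (SE 0.14, adjusted p = 0.798). The probe is at chr19:3305949-3306008, minus strand, and was above background on 17 arrays.

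Neuropeptide Y, a peptide of sympathetic nerves that constricts vessels, was measured well on all 18 arrays and did not follow the area. The ratio of Npy was -0.11, -0.45, 0.32, -0.45 and -0.42 on dissected central arrays, against 0.65, -0.55, -0.48, -0.16 and -0.84 on normal central arrays. On the peripheral arrays it ran from -0.49 to 0.36 in the dissected and from -0.56 to 0.01 in the normal group. The area difference was -0.08 (SE 0.25) in dissected and -0.03 (SE 0.29) in normal glands. After dissection Npy differed by 0.06 in the central area (SE 0.25, 95% interval -0.47 to 0.58, adjusted p = 0.998) and by 0.10 in the peripheral area (SE 0.29, 95% interval -0.50 to 0.70, adjusted p = 0.953). Changes within these intervals were not detectable with this number of arrays.

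**Figure D2:**
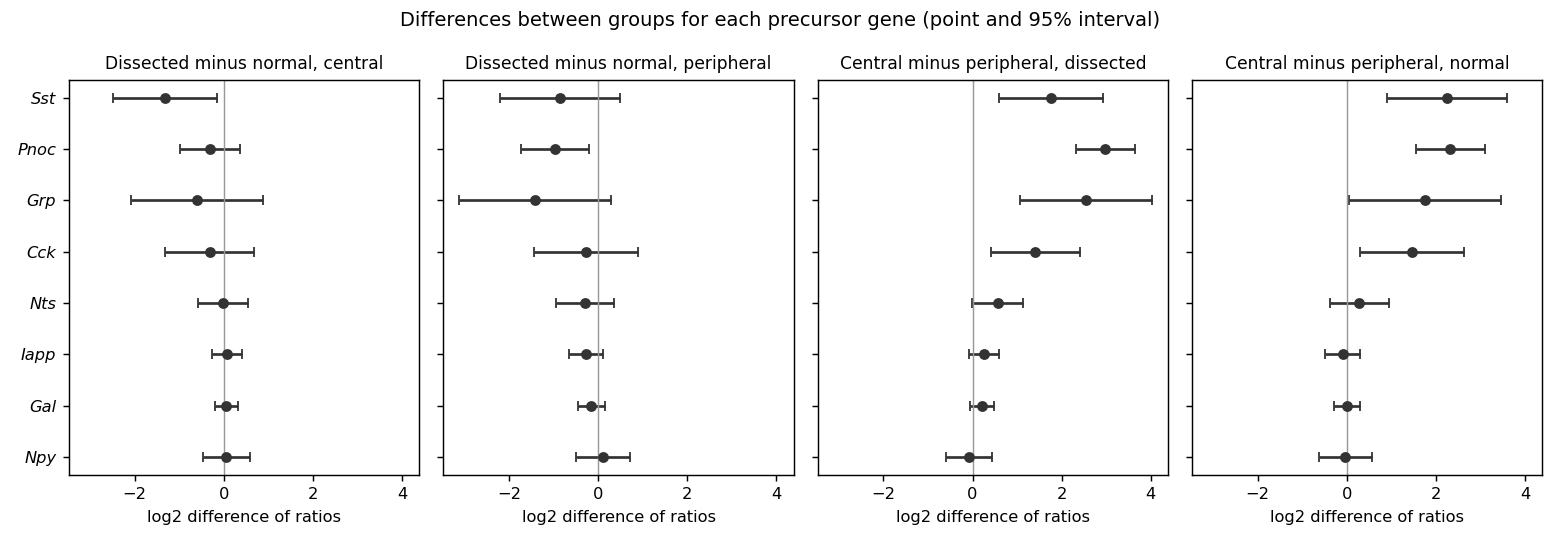
Log2 differences of each gene between groups, with 95% intervals from the limma fit. From left to right the panels give dissected minus normal in the central area, dissected minus normal in the peripheral area, central minus peripheral in dissected glands and central minus peripheral in normal glands. The area differences were in view when the genes were chosen, so the intervals in those panels show spread and are no test. The points of Pnoc, Grp, Sst and Cck lie to the right in both area panels. The widest interval after dissection is that of Grp in the peripheral area, -3.12 to 0.30.

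For the 8 genes together, 5 were lower and 3 higher after dissection in the central area, with a median difference of -0.17, against -0.01 over all 14664 genes. In the peripheral area 7 were lower and 1 higher, with a median of -0.29, against 0.01 over all genes. None of the 8 was called in either area. No gene of all 14664 was called in these 2 comparisons or in the difference between them (0% in each), while at an unadjusted p under 0.05 stood 766 genes (5.22%) in the central area, 1226 (8.36%) in the peripheral area and 852 (5.81%) in the difference between the areas. One of the 8 was under that level in the central area (Sst), 1 in the peripheral area (Pnoc) and 0 in the difference between areas. The difference between areas in the change after dissection was -0.47 for Sst (SE 0.85, adjusted p = 0.926), 0.66 for Pnoc (SE 0.48, adjusted p = 0.806) and 0.80 for Grp (SE 1.07, adjusted p = 0.897). For the other 5 it lay between -0.05 and 0.35, with adjusted p of 0.801 to 0.994.

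Single arrays were also compared by overlap, between the areas as a description only, since those values were in view when the genes were chosen. Of the 8 genes, Sst and Pnoc had every dissected central array above every dissected peripheral array, as did 1.21% of all genes. Sst, Pnoc and Grp had every normal central array above every normal peripheral array, as did 3.57% of all genes with 5 and 3 arrays. No gene of the 8 had all dissected central arrays below all normal central arrays, a pattern of 0.573% of all genes, and in the peripheral area only Pnoc did.

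The central arrays differ in how much C cell signal they hold, and the 8 genes followed that signal to different degrees. Across the 10 central arrays, 5 dissected and 5 normal, the ratio of Pnoc correlated with the mean of the C cell list at r = 0.87 and that of Grp at r = 0.83. The values were 0.53 for Sst, 0.46 for Cck, 0.11 for Npy, 0.10 for Nts, 0.08 for Gal and -0.18 for Iapp. These are descriptions over arrays that share a reference and slides. The first 2 rest on dissected central 2, without which they were 0.42 for Pnoc and 0.35 for Grp. The rank correlations were 0.67 for Pnoc, 0.70 for Grp and 0.25 for Sst.

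**Figure D3:**
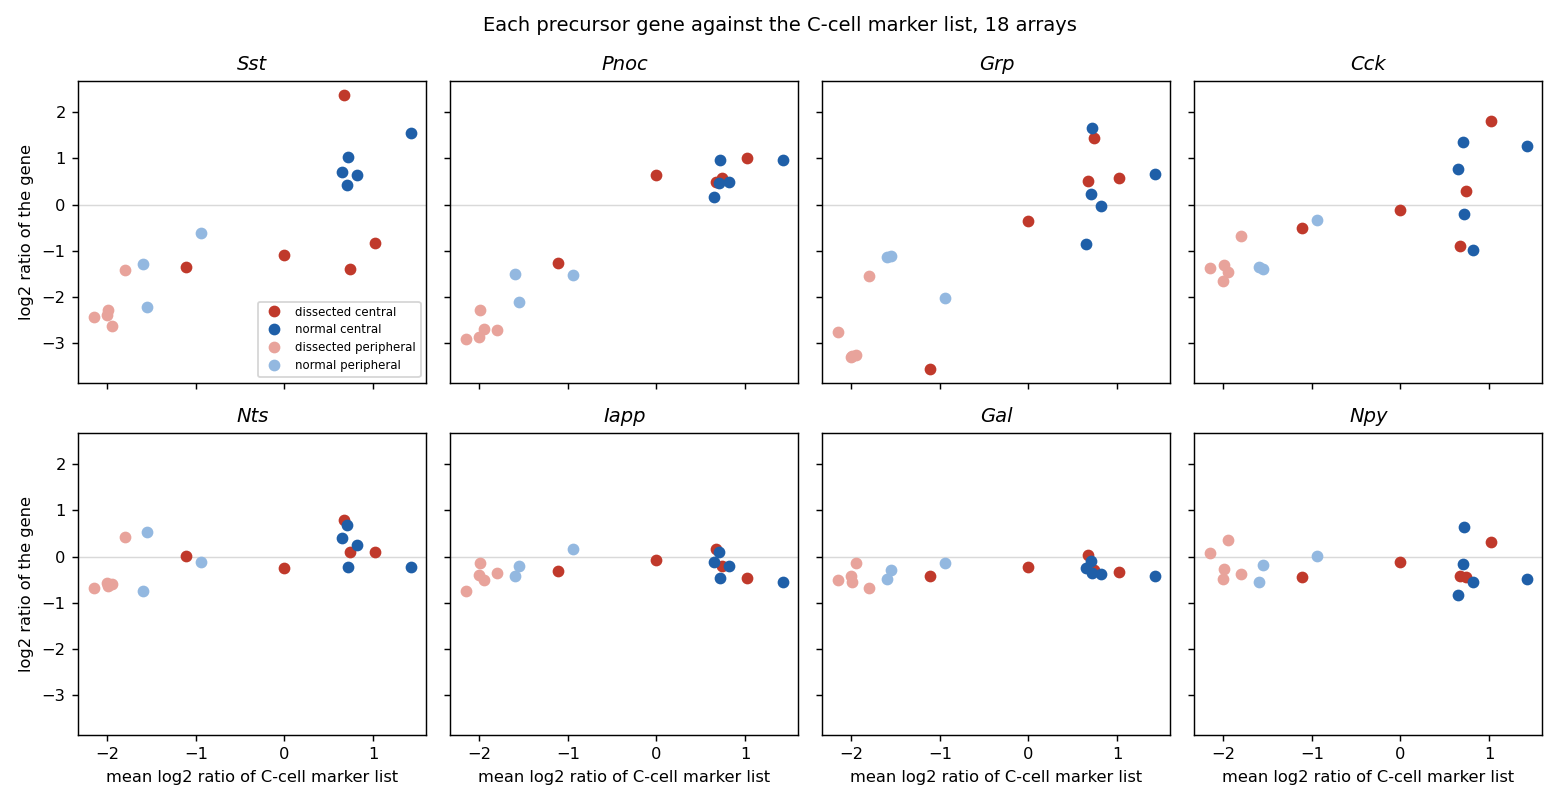
Log2 ratio of each gene against the mean log2 ratio of the 12 measured C cell markers, 1 point per array, 18 arrays in 4 groups. Pnoc rises along the list from the peripheral to the central arrays, and Npy shows no slope. Sst on dissected central 3 and 4 lies at -0.84 and -1.40, at list means of 1.02 and 0.74.

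Among themselves, the genes formed 2 loose groups over the 10 central arrays. Pnoc and Grp correlated at r = 0.92. Iapp correlated with Gal at r = 0.88 and with Nts at r = 0.78, and Gal with Nts at r = 0.78. Their shared movement was small, within -0.55 and 0.79 on the log2 scale. Sst correlated with none of the other 7 above 0.40. Genes with the pattern most like each one over the central arrays were taken by Pearson correlation, 3 per gene. For Pnoc they were Tmem59l (r = 0.97), Elapor1 (0.95) and Aplp1 (0.95), which kept r of 0.93 to 0.96 over all 18 arrays. For Sst they were Igfbp5, a binding protein of insulin-like growth factors (0.94), Rtcb (0.94) and Sf3a3 (0.92), of which Igfbp5 alone kept a high r over all arrays (0.89). With Cy5 alone Igfbp5 kept r = 0.93, whereas Rtcb fell to 0.07 and Sf3a3 to 0.66. For Grp they were Ift27 (0.94), Pnoc (0.92) and Camk2n2 (0.91). Those of Cck were the transcripts AK038388 (0.94) and A630019B22 (0.92) and the gene Ube2d2a (0.91). The closest to Nts, Iapp, Gal and Npy were LOC665242 (0.94), Nfu1 (0.99), Iqcf1 (0.96) and Zfp330 (0.92). With Cy5 alone those of Iapp and Gal weakened most, to 0.59 to 0.67 for the 3 of Iapp and 0.09 to 0.63 for the 3 of Gal. For Pnoc and Grp the values rested in part on dissected central 2, without which they were as low as 0.71 and 0.64. None of these 24 matches is in the C cell list, which depends on the cut at 3 per gene. Just below that cut, the listed marker Calca ranked 4 for Pnoc (r = 0.95) and Scg3 ranked 5 for Grp (r = 0.91). For the remaining genes the best rank of a listed marker was 261, that of Snap25 for Sst.

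Both convertases that cut most neuroendocrine precursors, Pcsk1 and Pcsk2, were higher in the central area. All 15 listed processing genes were measured, a list chosen with earlier results of these data known. In both states 2 were called higher in the central area, namely these, with none lower. Of all genes, 0.586% were called higher there in dissected and 0.280% in normal glands. The other 13 listed genes, Furin, Pcsk5 and Pcsk7 among them, were not called, but not all of them were flat. Carboxypeptidase E (Cpe) had means of 0.21 in dissected central and -1.24 in dissected peripheral arrays. In normal glands its means were 0.84 and -1.08. Of all 15, 12 had a positive area difference in dissected and 11 in normal glands. Pcsk2, which cuts pro-somatostatin, was at 0.17 ± 1.27 (SD, n = 5) in dissected central and -3.23 ± 0.12 (SD, n = 5) in dissected peripheral arrays, a difference of 3.40 (SE 0.42, limma adjusted p = 0.0008). In normal glands it was at 0.89 ± 0.31 (SD, n = 5) and -2.18 ± 0.59 (SD, n = 3), a difference of 3.08 (SE 0.49, limma adjusted p = 0.0185). Pcsk1 differed by 2.98 (SE 0.43, adjusted p = 0.0024) in dissected and 2.45 (SE 0.49, adjusted p = 0.0405) in normal glands. The call of Pcsk1 in normal glands was fragile, since it was lost on leaving out any of 14 of the 18 arrays, with adjusted p up to 0.189. The Pcsk2 call in normal glands was lost when normal central 1, normal central 3, normal peripheral 2 or normal peripheral 3 was left out. Both calls in normal glands were also lost with the replicate block (adjusted p of 0.0644 for Pcsk2 and 0.0798 for Pcsk1) and on each scan day alone. In dissected glands both were lost on scan day 2 alone, and that of Pcsk1 also on scan day 1 alone. Pcsk2 is also in the C cell list. The median area difference of the processing list was 0.35 in dissected and 0.34 in normal glands, against -0.00 and 0.01 over all genes.

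Of 24 listed receptors for these peptides, 9 were measured, so most receptor genes were too dim to compare. Ntsr2, a neurotensin receptor, was at 0.29 ± 0.48 (SD, n = 5) in dissected central and -0.75 ± 0.16 (SD, n = 5) in dissected peripheral arrays. Its spot was above background on 3 dissected central and 5 normal central arrays and on no peripheral array. Ntsr2 therefore passed the filter on dim probes through central arrays alone, and its call is no independent support. As an approximate bound, it was 1.59-fold brighter in the dissected central than in the dissected peripheral area. It was called higher in the central area of dissected glands by 1.04 (SE 0.19, limma adjusted p = 0.0139), and not in normal glands (0.51, SE 0.22, adjusted p = 0.545). The difference between the states was not called (0.54, SE 0.30, adjusted p = 0.790). The Ntsr2 call was lost without dissected central 5 (adjusted p = 0.0523), without background correction (0.0569), with Cy5 alone (0.196), with only the groups compared (0.102) and on each scan day alone (up to 0.878). Cckar, a cholecystokinin receptor, differed by 0.34 (SE 0.22, adjusted p = 0.837) in dissected and 0.80 (SE 0.26, adjusted p = 0.330) in normal glands. Oprl1, the nociceptin receptor, was above background on all 18 arrays, with means between -0.26 and -0.08 in the 4 groups.

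A list of 57 other peptide precursors, of which 28 were measured, had none called in any comparison. Of all genes, 0% to 0.586% were called in these comparisons. Their median area difference was 0.05 in dissected and 0.00 in normal glands, against -0.00 and 0.01 over all genes. The smallest p in dissected glands belonged to Pthlh, a parathyroid hormone relative (0.59, SE 0.22, adjusted p = 0.482), and Adm, adrenomedullin (-0.35, SE 0.16, adjusted p = 0.630). In normal glands it belonged to Apln, apelin (-0.89, SE 0.22, adjusted p = 0.132), and Penk, proenkephalin (0.98, SE 0.49, adjusted p = 0.601).

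**Figure D4:**
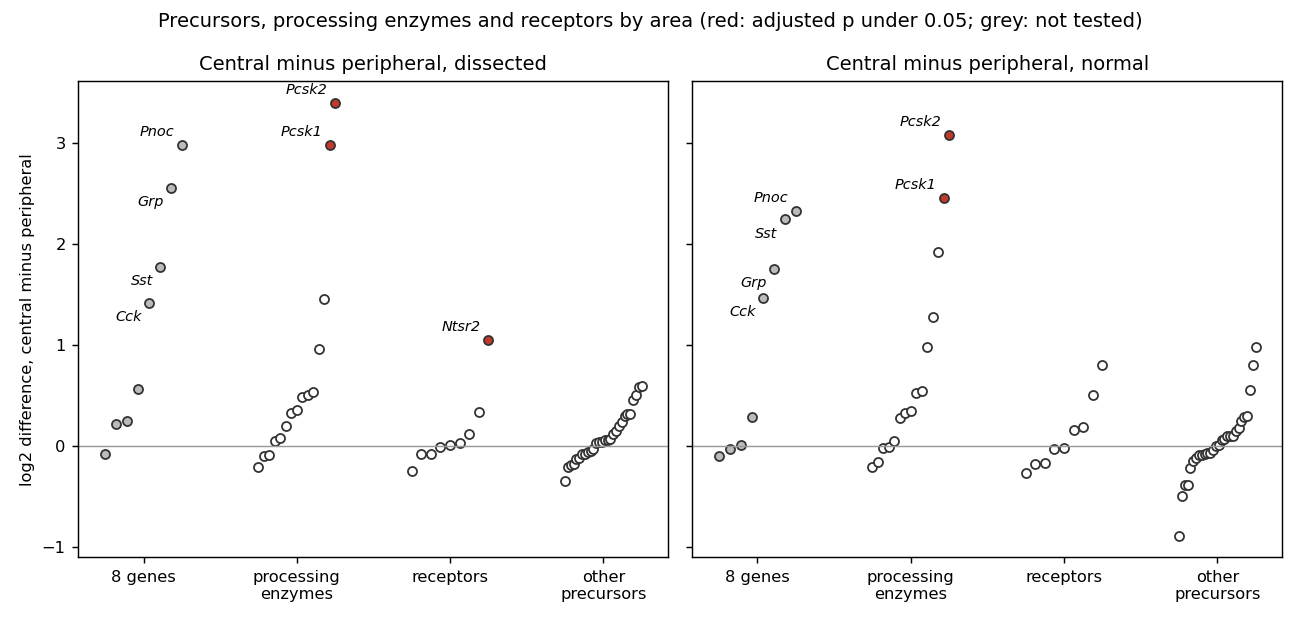
Log2 difference of central minus peripheral for the 8 genes, the 15 processing genes, the 9 measured receptors and the 28 measured other precursors, in dissected (left) and normal (right) glands. Each point is a gene. The 8 genes are grey and untested, and among the others red points have an adjusted p under 0.05 over all 14664 genes. Pcsk1 and Pcsk2 are red in both panels and Ntsr2 in the dissected one only, at 1.04.

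No gene of these 3 lists was called after dissection, in either area. In the central area the smallest p of each list went to Pcsk2 (-0.72, SE 0.42) and Pcsk6 (0.61, SE 0.37) among processing genes, to Cckar (-0.53, SE 0.22, adjusted p = 0.879) and Ramp2 (0.26, SE 0.24) among receptors, and to Pthlh (0.35, SE 0.22) and Rln3 (-0.18, SE 0.12) among other precursors. In the peripheral area it went to Ctsl, cathepsin L (1.05, SE 0.39, adjusted p = 0.538), and Pcsk1 (-1.09, SE 0.49, adjusted p = 0.585). Sort1 (0.39, SE 0.22) and Ntsr2 (-0.39, SE 0.22) led the receptors, and Apln (-0.99, SE 0.22, adjusted p = 0.304) and Nmu (-0.70, SE 0.28, adjusted p = 0.575) the other precursors. List medians after dissection lay between -0.08 and 0.01, against -0.01 to 0.01 over all genes.

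The depth behind these values is the number of arrays and the share of spots seen. Between 24.7% and 44.0% of the gene probes gave a Cy5 signal above background. The share was under 30% on normal peripheral 1, dissected central 1, dissected central 2 and dissected peripheral 1. Without these 4 arrays the dissected minus normal difference in the central area was -0.82 for Sst and 0.51 for Grp, and the area differences of Sst, Pnoc and Grp in dissected glands were 2.48, 3.38 and 3.99. The arrays lay on 5 slides scanned on 2 days, and each group always took the same position on its slide, so that position and group cannot be told apart. On scan day 1 alone, Sst differed by -2.10 and Grp by 0.57 between dissected and normal central areas, and on scan day 2 alone by -0.81 and -1.39.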

How the data were processed

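Agilent 2-colour mouse arrays carried captured thyroid RNA in Cy5 and a common reference in Cy3, with no dye swap. Per the labels, RNA was amplified with RiboAmp and labelled with an Arcturus kit. Per the file headers, the deposited files hold spot and local background intensity from Agilent Feature Extraction 9.5.1.1 (8.5.1.1 in the submitters' processing notes) and that program's log10 ratio of processed Cy5 over Cy3. The authors also deposited a table of linear ratios. Its 40934 probes matched the scanner files, its centred values followed the program's ratio (r 0.995 to 1.000), and its column medians were 0.871 to 1.06. Direction and linear scale were read from the values, and the authors' centring stays unknown. It served as an alternative.

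Mean intensities were background-corrected by normexp (offset 50, which shrinks ratios of dim spots), normalized by loess within each array, and spots of a probe averaged. Non-uniform spots were left out. Of 41174 gene probes, 22951 were named by accession through RefSeq genes of GRCm38.p6, 6659 by current symbol and 3109 by older symbol, and 8455 kept the name in the files. Probes above background in Cy5 on at least 3 arrays were kept (19082), and the brightest stood for its gene (14664). Positions are on build mm7 (NCBI35). No genome of that build was used, so exons under probes were not determined. Bounds compare group means of log2 Cy5 after loess and Aquantile, the dim group raised on each array to its lowest detected signal. Undetected spots of the brighter group entered as measured, so the bounds are approximate.

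A model of 4 group means was fitted with limma 3.58.1 in R 4.3.3, moderated by eBayes, with two-sided p-values adjusted by Benjamini-Hochberg over all genes, and checked on simulated data. The members and the gene lists were chosen with earlier results of these data known. Named were all 8 genes, the 3 genes most correlated with each over the central arrays, and from each of 3 lists the called genes or otherwise the 2 with the smallest p. Oprl1, Cpe, Furin, Pcsk5, Pcsk7 and the marker genes were named after their values were seen. Replicate numbers follow slides except for normal peripheral 3. No pairing was assumed. Alternatives were other background corrections, Cy5 alone, the authors' table, other filters, slide and replicate blocks, single scan days, each array left out, and, added after seeing the data, the 4 arrays with the fewest detected probes left out.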

Additional observations from a re-analysis of the deposited data

Results flagged for a closer look

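In 30 combinations of probe and group with 5 arrays, 4 single arrays stood far from the rest by Dixon's test, where about 1 in 20 would by chance. Sst was at 2.38 on dissected central 5, against -1.40 to -0.84 on the other dissected central arrays, with a tissue intensity of 4992 against 30.7 to 427. Sst was at -1.42 on dissected peripheral 1, against -2.62 to -2.28 on the other 4, none of them above background. Pnoc was at -1.25 on dissected central 2, against 0.49 to 1.01 on the others, and the C cell list on that array was at -1.11. Nts was at 0.43 on dissected peripheral 1, against -0.68 to -0.57 on the others, and the spot was not called above background. Dissected peripheral 1 and dissected central 2 are among the 4 arrays on which under 30% of gene probes were above background. The causes were not tested.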

How the results depend on the processing

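Over the 8 genes, none of 709 recomputed differences after dissection or between areas in that change became significant, and 701 moved by less than the gene's largest SD within a group. Of the area differences, 459 of 478 stayed within that range. A change of sign was counted as reversed only where the difference was at least its SE. In all, 61 of the first and 23 of the second set changed sign, 59 and 22 of them for differences smaller than their SE. Reversed were Gal in the authors' table, at 0.00313 for the peripheral change and -0.00966 for the difference between areas, and Cck in normal glands with its second probe (-0.11). Scanner ratios and the authors' table gave larger area differences for dim genes, up to 4.10 for Cck and 1.68 for Nts in normal glands. Among the list genes, Ramp2 turned to -0.13 in the central change and Sort1 to -0.0772 in the peripheral change on scan day 1 alone, and without the 4 arrays with the fewest detected probes Sort1 turned to -0.0257 and Ctsl to 0.22 in the difference between areas.

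Genes called after dissection in the peripheral area were 1 with the scanner ratio or the authors' table, and 0 to 1 with single arrays left out, the 1 without normal peripheral 3. In the central area 0 to 1 were called with single arrays left out, the 1 without dissected central 2 or 3. The 41 calls between areas in normal glands became 78 with the scanner ratio, 67 without background correction, 94 in the authors' table, 18 with slides as a block, 8 with no filter on dim probes, 1 and 0 on the single scan days, 95 without the 4 arrays, and 1 to 76 with single arrays left out, the lowest without normal peripheral 2 and the highest without dissected central 2. The 86 in dissected glands became 45 with Cy5 alone, 21 with only the groups compared, 26 and 0 on the single scan days, 193 without the 4 arrays, and 47 to 173 with single arrays left out, the lowest without dissected central 3 and the highest without dissected central 2. With the replicate block the calls were 4 in normal glands, where Pcsk1 and Pcsk2 lost theirs, and 84 in dissected glands, where both and Ntsr2 were called. Of 21 pairs of arrays that share number and slide, 9 had deviations correlated over 0.1 (median 0.09, from -0.07 to 0.29), against 6 of 93 pairs that share neither (median -0.01). Not every pair passed, so the numbers were not taken to pair the samples. That rule cannot exclude dependence between arrays of 1 slide or animal, which the main fit did not model. Dissected central and dissected peripheral arrays of the same number had r of 0.07 to 0.21, against -0.17 to 0.08 for different numbers. The causes were not tested.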
